A study of Homo sapiens with 4 samples.

Results

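The SLC25 genes encode the mitochondrial carriers, the family of membrane proteins that exchange nucleotides, phosphate, carboxylates, amino acids, cofactors and iron across the inner mitochondrial membrane. Members were the rows of the authors' table typed as protein-coding whose symbol begins with SLC25A and a number, which gave 49 of 48162 listed genes. The 49 rows carry 48 symbols, since SLC25A10 is listed under a pair of identifiers and the second is at 0 in all 4 libraries. RNA sequencing compared MDA-MB-231 cells, an established line from a triple-negative breast cancer, after 24 h with 10 µM MGH-CP1 (2 libraries) and after 24 h with vehicle (2 libraries). MGH-CP1 blocks, according to the series title, the palmitoylation of TEAD, the transcription factors through which YAP and TAZ act on genes. All cells were grown in DMEM with serum and antibiotics, and no label describes separate cultures, so p-values reflect only how far these libraries differ, which may be a technical spread.

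Carriers are built from a repeated module of paired transmembrane helices and work by opening in turn to the cytosol and to the matrix. They are made in the cytosol and inserted into the inner membrane by the TIM22 import pathway. In proliferating tumour cells they are known for supplying ADP and phosphate to ATP synthase, exporting citrate and aspartate for biosynthesis, and bringing folate, NAD and pyrimidine nucleotides into the matrix.

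Levels are given as FPKM (reads scaled to gene length and to library size), which can be compared between genes. Libraries held 16960448 to 17295817 reads with MGH-CP1 and 16790645 to 18485701 reads with vehicle, recovered from the FPKM values as described under the processing. For a gene 1 kb long, 1 read equalled 0.0541 to 0.0596 FPKM. The line's markers VIM and CD44 were at 193 FPKM and above with MGH-CP1 and 147 FPKM and above with vehicle. ESR1 and PGR were at or near 0, and the leukocyte marker PTPRC was at 0.0895 FPKM or less in every library. KRT18, preset as present, was at 59.4 to 78.7 FPKM, and CDH1, preset as low, at 0.489 to 0.895 FPKM. EPCAM, also preset as low, was at 7.91 to 9.95 FPKM, and COL1A1, a preset marker of other cells, at 1.85 to 2.79 FPKM. The TEAD target CYR61 was at 62.6 and 56.4 FPKM with MGH-CP1, against 236 and 228 FPKM with vehicle. Transcripts of the mitochondrial genome took 1.81% and 1.54% of reads with MGH-CP1, against 0.676% and 0.645% with vehicle, and the proliferation marker MKI67 was at 28.5 and 32.1 FPKM, against 75.8 and 85.3 FPKM. Both move with the groups, and their part in the carrier results was not tested. In bulk RNA, a change in how many cells of a kind are present and a change in RNA per cell cannot be told apart.

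Changes of the expressed carriers were small, and more of those that passed the test were lower than higher with MGH-CP1. Of the 49 members, 35 averaged 1 FPKM or more across the libraries and were tested. With limma at an adjusted p under 0.05, 3 were higher (SLC25A23, SLC25A37 and SLC25A51) and 13 were lower, while 19 did not pass. Across all 11790 tested genes 45.0% were called, 20.0% higher and 25.1% lower, so the share of carriers called (45.71%) was near that of the whole table. Of the tested carriers 37.14% were lower and 8.571% higher. Their median log2 fold change (MGH-CP1 over vehicle, on log2(FPKM + 1)) was -0.18, beside -0.02 for all tested genes. No carrier reached a 2-fold change on that scale, which compresses changes of low genes.

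The number of carriers that passed depended on single libraries, as did the number of all genes that passed. Of the 35 log2 values 23 were below 0, and 23, 23, 26 and 24 were below 0 without MGH-CP1 replicate 1, MGH-CP1 replicate 2, vehicle replicate 1 and vehicle replicate 2. The median log2 value in those 4 fits was -0.20, -0.13, -0.10 and -0.22. Without MGH-CP1 replicate 2, 5 carriers were lower (14.29%) and 2 higher, where 17.4% of all tested genes were lower and 12.4% higher. Without MGH-CP1 replicate 1, 9 were lower and 3 higher, beside 17.5% and 12.9% of all tested genes. Without vehicle replicate 1, 9 were lower and 6 higher, beside 25.4% and 21.7%, and without vehicle replicate 2, 13 were lower and 3 higher, beside 26.2% and 20.8%. In 5 of the 16 calls no alternative with a value ended the call: SLC25A3, SLC25A13 and SLC25A32 among the lower genes, and SLC25A23 and SLC25A37 among the higher. With no filter on low values, which brings in 24640 genes, 6 of the 16 calls remained, these 5 and SLC25A12, while 8.25% of all genes were lower and 6.36% higher. The share of all tested genes called lower and higher was 23.4% and 21.7% with the median log2 ratio set to 0, 26.7% and 22.1% with voom on recovered reads, and 25.8% and 20.8% with the replicate number in the fit. In those alternatives 11, 14 and 12 carriers were lower and 4 higher in each. The MGH-CP1 values lay outside the vehicle values for 26 of the 35 tested carriers, 20 below and 6 above, or 74.29%. Of all tested genes 74.1% did so, 39.4% below and 34.7% above.

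**Figure D1:**
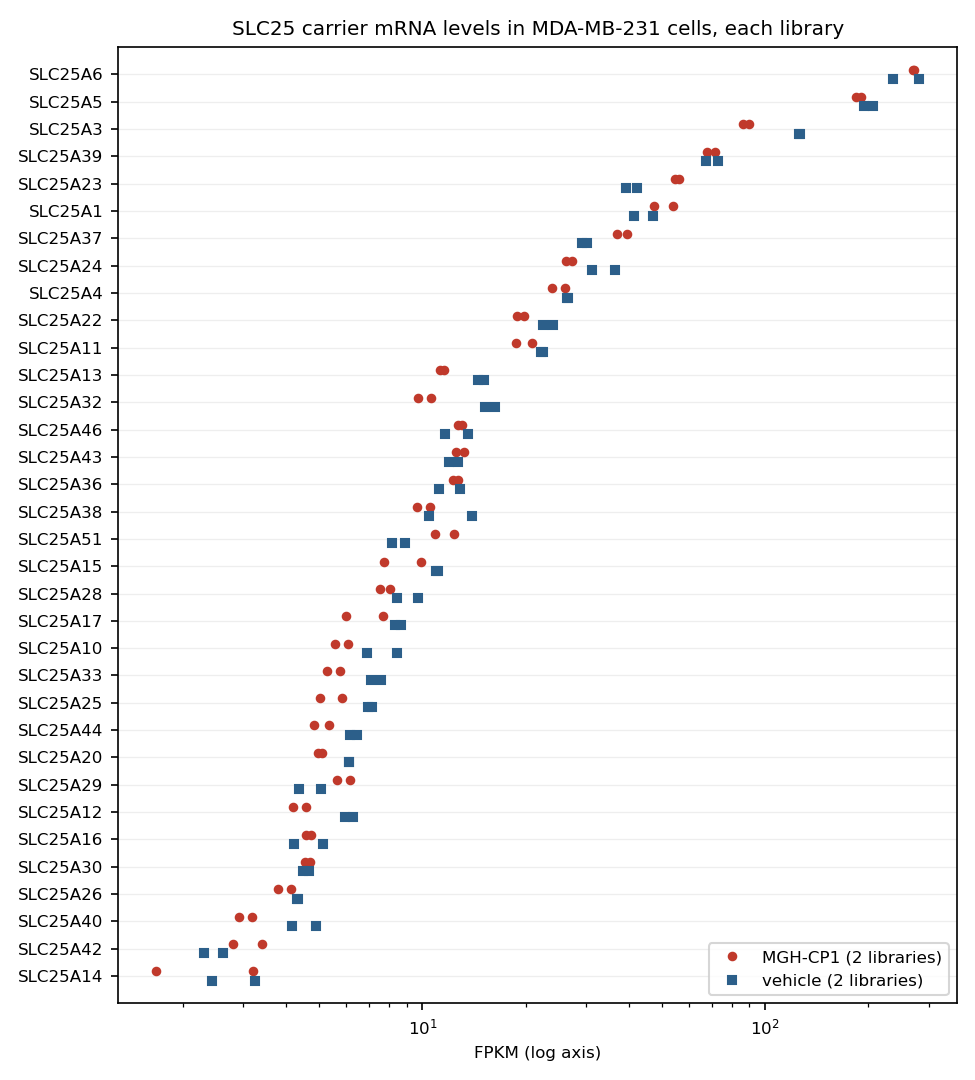
FPKM (log axis) of 34 tested SLC25 carriers in each of the 4 libraries, with MGH-CP1 (circles) above vehicle (squares) for each gene. Levels ran from 2.64 FPKM for SLC25A14 to 265 FPKM for SLC25A6 as means over all libraries, and for most genes the groups lay close together.

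Gene positions are those of hg19, and group means are given ± SD over 2 libraries. Levels of the tested carriers ranged widely. The median over the 35 was 10.1 FPKM, and 4 stood at 50 FPKM or more: the ADP/ATP carrier genes SLC25A6 and SLC25A5, the phosphate carrier gene SLC25A3 and the glutathione carrier gene SLC25A39. Summed over all members, FPKM reached 1023 and 1016 with MGH-CP1, against 1102 and 1029 with vehicle. The MGH-CP1 sums lay below both vehicle sums, and the vehicle libraries differed more from each other than the nearer one did from MGH-CP1. Family reads were 0.250% and 0.249% of each MGH-CP1 library, against 0.268% and 0.255% of each vehicle library.

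Of the tested carriers, the phosphate carrier, which brings in the phosphate used by ATP synthase, had the largest difference in mean FPKM. SLC25A3 (chromosome 12, 98987369 to 98995946, plus strand) was at 89.4 and 86.4 FPKM with MGH-CP1, against 127 and 126 FPKM with vehicle. Both MGH-CP1 libraries were well below both vehicle libraries. The log2 fold change was -0.52 ± 0.05 (SE; limma, adjusted p = 0.000343), and its highest adjusted p over the alternatives was 0.00788. SLC25A3 made up 8.75% and 8.51% of the family's summed FPKM with MGH-CP1, against 11.5% and 12.2% with vehicle.

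The ADP/ATP carriers, which exchange cytosolic ADP for matrix ATP, did not pass the test as single genes. SLC25A6 was at 270 and 272 FPKM with MGH-CP1, against 281 and 236 FPKM with vehicle, so the vehicle libraries lay on either side. Its log2 difference was 0.07 with a 95% interval of -0.13 to 0.28 (limma, adjusted p = 0.520), and it was called higher only without vehicle replicate 1 (limma, adjusted p = 0.0182, from 0.0182 to 0.707 over the alternatives). SLC25A5 was at 184 and 190 FPKM with MGH-CP1, against 207 and 194 FPKM with vehicle (log2 difference -0.10, 95% interval -0.24 to 0.05; limma, adjusted p = 0.229). The muscle-type gene SLC25A4 was at 23.9 and 26.0 FPKM, against 26.7 and 26.3 FPKM (log2 difference -0.09, 95% interval -0.24 to 0.07; limma, adjusted p = 0.320). Together the 3 genes held 46.8% and 48.0% of the family's summed FPKM with MGH-CP1, against 46.7% and 44.3% with vehicle, and SLC25A6 was the most abundant of them in every library. SLC25A31, the ADP/ATP carrier known from testis, had 1 read in a single MGH-CP1 library. Processed pseudogenes can take reads from these genes. The table lists 36 SLC25 pseudogenes, of which 4 had any value and none exceeded 0.671 FPKM.

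Among the ATP-Mg/phosphate carriers, calcium-regulated proteins that set the adenine nucleotide content of the matrix, the most abundant paralog rose and the other two tested fell. SLC25A23 (chromosome 19, 6436090 to 6465214, minus strand) was at 54.6 and 56.0 FPKM with MGH-CP1, against 42.3 and 39.4 FPKM with vehicle. SLC25A24 (chromosome 1, 108676658 to 108743471, minus strand) was at 27.3 and 26.1 FPKM with MGH-CP1, against 31.2 and 36.5 FPKM with vehicle. SLC25A25 (chromosome 9, 130830480 to 130871524, plus strand) was at 5.03 and 5.84 FPKM, against 7.12 and 6.91 FPKM. In none of the 3 did the groups overlap, as was so for 74.1% of all tested genes. The log2 fold changes were 0.43 ± 0.06 for SLC25A23 (limma, adjusted p = 0.00129), -0.33 ± 0.08 for SLC25A24 (limma, adjusted p = 0.0155) and -0.32 ± 0.09 for SLC25A25 (limma, adjusted p = 0.0268). SLC25A23 thus took 62.9% and 63.6% of the summed FPKM of the 3 genes with MGH-CP1, against 52.5% and 47.6% with vehicle. The SLC25A24 call was lost without MGH-CP1 replicate 2 (limma, adjusted p = 0.0862, from 0.000403 to 0.0931 over the alternatives), and its log2 value was -0.22 without vehicle replicate 2. The SLC25A25 call was lost without MGH-CP1 replicate 1 (limma, adjusted p = 0.188) and without vehicle replicate 1 (limma, adjusted p = 0.0552), in a range of 0.00975 to 0.188 over the alternatives. The fourth paralog, SLC25A41, had at most 5 reads in a library.

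**Figure D2:**
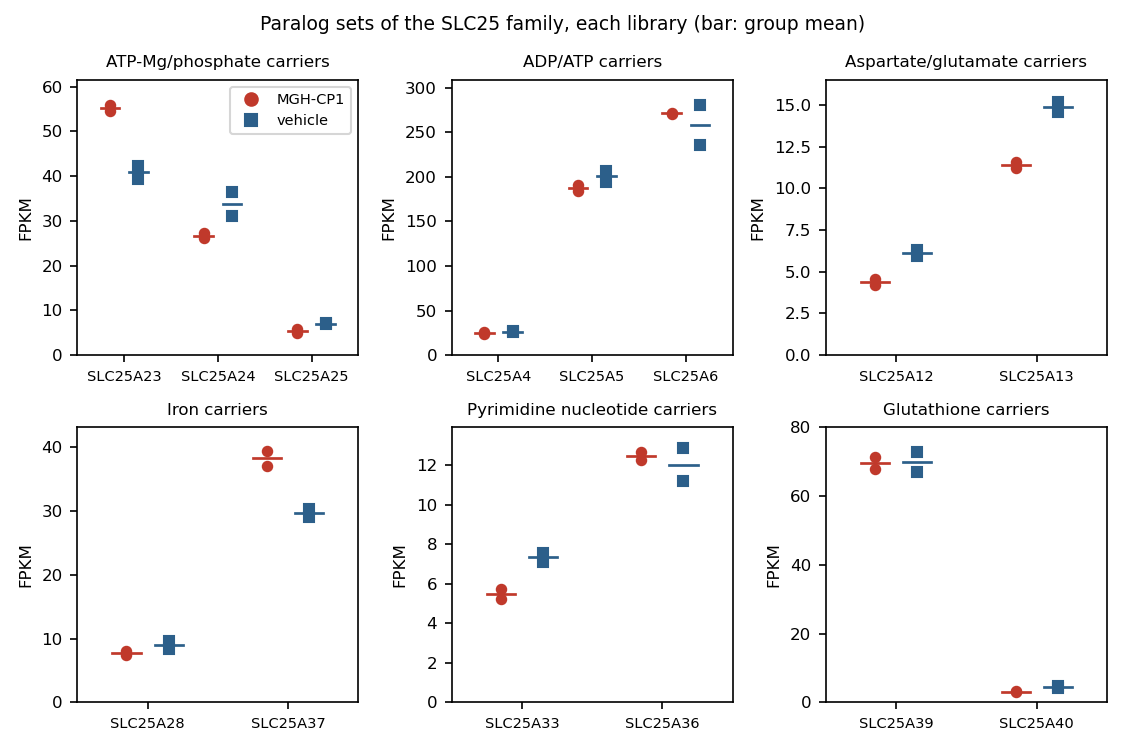
FPKM of 6 sets of paralogous carriers in each library, MGH-CP1 (circles) left of vehicle (squares) for each gene, with a bar at the group mean and axes starting at 0. SLC25A23 and SLC25A37 sat higher with MGH-CP1. SLC25A24, SLC25A25, SLC25A12, SLC25A13, SLC25A33 and SLC25A40 sat lower and were called. SLC25A4, SLC25A5 and SLC25A28 sat lower but did not pass, and the groups overlapped for SLC25A6, SLC25A36 and SLC25A39.

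Promoter windows (250 bases before to 50 after each annotated start, RefSeq, GRCh38.p14) were found for 40 of the 48 symbols, 50 windows in all, and searched on both strands for 4 motifs. GGAATG, the core bound by TEAD proteins, was present in 3 of the 50 windows (6%), those of SLC25A23, SLC25A24 and SLC25A28, against 14.0% of the 35093 windows of all genes and 11.4% of the windows of tested genes. CACGTG, the E-box of MYC and MAX, which reads the same on both strands, was present in 9 of the 50 windows (18%), against 7.26% of all windows and 9.35% of the windows of tested genes. TGATGCAA, the ATF4 and CEBP composite, and the NRF1 motif were in none of the 50, and in 0.866% and 1.24% of all windows. The stretches below lie upstream of the start and are shown because carriers with the same letters were called in opposite directions. SLC25A23 was higher and SLC25A24 lower with the TEAD core, and SLC25A51 was higher and SLC25A13 and SLC25A33 lower with the E-box. Capitals mark the match, which for the first pair is the reverse complement of GGAATG, and a match is a string of letters and not a bound site. In order they are chr19:6459830-6459949 (minus strand), chr1:108192966-108193085 (minus strand, at one of the annotated starts of SLC25A24), chr9:37904128-37904247 (minus strand), chr7:96322190-96322309 (minus strand) and chr1:9539345-9539464 (plus strand), each 120 bases.
SLC25A23: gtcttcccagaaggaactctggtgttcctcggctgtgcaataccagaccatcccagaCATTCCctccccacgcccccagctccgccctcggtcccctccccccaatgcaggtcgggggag
SLC25A24: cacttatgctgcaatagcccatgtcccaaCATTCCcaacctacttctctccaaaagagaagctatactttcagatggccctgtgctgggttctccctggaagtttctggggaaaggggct
SLC25A51: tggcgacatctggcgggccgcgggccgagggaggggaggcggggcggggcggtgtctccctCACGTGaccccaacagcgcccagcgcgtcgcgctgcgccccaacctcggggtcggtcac
SLC25A13: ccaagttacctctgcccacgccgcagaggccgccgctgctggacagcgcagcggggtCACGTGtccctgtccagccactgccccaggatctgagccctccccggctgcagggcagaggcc
SLC25A33: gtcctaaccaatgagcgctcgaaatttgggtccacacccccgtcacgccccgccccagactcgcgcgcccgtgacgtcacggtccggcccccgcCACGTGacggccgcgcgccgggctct
The other E-box windows belong to SLC25A22, which was lower, to SLC25A26, SLC25A36, SLC25A38 and SLC25A46, which did not pass, and to SLC25A31, which was below the limit for testing.

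Carriers of cofactors and nucleotides held both falls and 1 of the rises. Of 9 tested genes in this group 3 were lower and 1 higher, where 25.1% and 20.0% of all tested genes were, with a median log2 fold change of -0.10. SLC25A32 (chromosome 8, 104410863 to 104427417, minus strand), which carries folate and flavin into the matrix, was at 10.6 and 9.69 FPKM with MGH-CP1, against 15.3 and 16.3 FPKM with vehicle. Its groups were far apart (log2 fold change -0.59 ± 0.08; limma, adjusted p = 0.000871, at most 0.0153 over the alternatives). It shares 476 bases with DCAF13 on the opposite strand, at a mean of 7.38 FPKM and also lower (log2 fold change -0.48), and since the use of strand in counting is not stated its value is uncertain to that extent.

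The NAD carrier gene SLC25A51 (chromosome 9, 37879400 to 37904350, minus strand) went the other way. It was at 10.9 and 12.3 FPKM with MGH-CP1, against 8.89 and 8.16 FPKM with vehicle, with no overlap (log2 fold change 0.40 ± 0.09; limma, adjusted p = 0.00837). The call was lost without MGH-CP1 replicate 2 (limma, adjusted p = 0.0716, from 0.00335 to 0.0716 over the alternatives). A listed pseudogene on the opposite strand, RP11-3J10.4, overlaps SLC25A51 over 708 bases. It averaged 13.3 FPKM and was also higher (log2 fold change 0.64 ± 0.07; limma, adjusted p = 0.000315), so the SLC25A51 value is uncertain. SLC25A52, the close paralog of SLC25A51, had 3 reads in 1 MGH-CP1 library and 0 in the others.

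Of the pyrimidine nucleotide carriers, which supply mitochondrial DNA and RNA synthesis, SLC25A33 was lower and SLC25A36 did not pass. SLC25A33 (chromosome 1, 9599541 to 9642831, plus strand) was at 5.75 and 5.25 FPKM with MGH-CP1, against 7.10 and 7.57 FPKM with vehicle (log2 fold change -0.36 ± 0.09; limma, adjusted p = 0.0128). Its call was lost without MGH-CP1 replicate 2 (limma, adjusted p = 0.0944, from 0.00866 to 0.0944 over the alternatives). SLC25A36 was at 12.3 and 12.7 FPKM with MGH-CP1, against 11.2 and 12.9 FPKM with vehicle, a log2 difference of 0.05 with a 95% interval of -0.14 to 0.25 (limma, adjusted p = 0.650). The ratio of SLC25A36 to SLC25A33 was 2.13 and 2.42 with MGH-CP1, against 1.58 and 1.70 with vehicle. The difference between the paralogs was not tested.

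The other 4 tested genes of this group did not pass. SLC25A17, a peroxisomal carrier of coenzyme A and related nucleotides, was at 7.68 and 5.99 FPKM with MGH-CP1, against 8.30 and 8.64 FPKM with vehicle (limma, adjusted p = 0.0772). It was called lower with voom (adjusted p = 0.0483) and without MGH-CP1 replicate 1 (limma, adjusted p = 0.0244, from 0.0244 to 0.445 over the alternatives). The S-adenosylmethionine carrier SLC25A26 averaged 3.95 ± 0.244 FPKM with MGH-CP1, against 4.32 ± 0.00725 FPKM with vehicle (SD, n = 2 libraries each). LRIG1, on the opposite strand, overlaps SLC25A26 over 9310 bases and averaged 2.98 FPKM, so the SLC25A26 value is uncertain. SLC25A16 and SLC25A42, linked to coenzyme A, averaged 4.66 ± 0.111 and 3.10 ± 0.433 FPKM with MGH-CP1, against 4.68 ± 0.636 and 2.46 ± 0.219 FPKM with vehicle.

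Of 9 tested carriers of amino acids and glutathione 5 were lower and none higher, where 25.1% of all tested genes were lower and 20.0% higher. Their median log2 fold change was -0.26. Both aspartate/glutamate carriers, which export aspartate and run the malate-aspartate shuttle, fell. SLC25A13 (chromosome 7, 95749532 to 95951459, minus strand) was at 11.6 and 11.2 FPKM with MGH-CP1, against 14.6 and 15.2 FPKM with vehicle (log2 fold change -0.36 ± 0.07; limma, adjusted p = 0.00464, at most 0.0429 over the alternatives). SLC25A12 (chromosome 2, 172640880 to 172864766, minus strand) was at 4.56 and 4.18 FPKM, against 6.28 and 5.96 FPKM (log2 fold change -0.41 ± 0.09; limma, adjusted p = 0.00853). In both genes the groups were apart, as they were for 74.1% of all tested genes. The ratio of SLC25A13 to SLC25A12 was 2.54 and 2.68 with MGH-CP1, against 2.32 and 2.54 with vehicle. The SLC25A12 call was lost without MGH-CP1 replicate 2 (limma, adjusted p = 0.0651, from 0.00372 to 0.0651 over the alternatives). HAT1, on the opposite strand, spans 69642 bases of SLC25A12. It averaged 12.7 FPKM and fell by 0.89 on the log2 scale, so the SLC25A12 value is uncertain.

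The glutathione carriers differed in level and in call. SLC25A39 was at 71.3 and 67.8 FPKM with MGH-CP1, against 72.8 and 67.2 FPKM with vehicle, a log2 difference of -0.01 with a 95% interval of -0.16 to 0.14 (limma, adjusted p = 0.931). Its paralog SLC25A40 (chromosome 7, 87462883 to 87505672, minus strand) was at 2.92 and 3.18 FPKM, against 4.16 and 4.89 FPKM (log2 fold change -0.45 ± 0.11; limma, adjusted p = 0.0128). That call was lost without MGH-CP1 replicate 1 (limma, adjusted p = 0.0733, from 0.00257 to 0.0761 over the alternatives). SLC25A40 shares 142 bases with DBF4 on the opposite strand, which averaged 7.79 FPKM and fell by 0.85 on the log2 scale.

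The glutamate carrier SLC25A22 averaged 19.3 ± 0.660 FPKM with MGH-CP1, against 23.3 ± 1.204 FPKM with vehicle (limma, adjusted p = 0.0176). Its call was lost without MGH-CP1 replicate 1 (limma, adjusted p = 0.0624) or replicate 2 (limma, adjusted p = 0.132), in a range of 0.00556 to 0.132 over the alternatives. SLC25A44, the branched-chain amino acid carrier, averaged 5.09 ± 0.367 FPKM, against 6.30 ± 0.218 FPKM, and passed narrowly (limma, adjusted p = 0.0464). Leaving out any single library ended that call, with a highest adjusted p of 0.261. The ornithine carrier SLC25A15, at 8.81 ± 1.52 FPKM with MGH-CP1 against 11.0 ± 0.109 FPKM with vehicle, was just short of a call (limma, adjusted p = 0.0553). It was called lower with a filter at 5 FPKM (limma, adjusted p = 0.0403), with voom (adjusted p = 0.0479), with the replicate number in the fit (limma, adjusted p = 0.0431) and without MGH-CP1 replicate 1 (limma, adjusted p = 0.015, from 0.015 to 0.339 over the alternatives). The glycine carrier SLC25A38, which serves heme synthesis, was at 9.61 and 10.5 FPKM with MGH-CP1, against 13.9 and 10.5 FPKM with vehicle. It did not pass (limma, adjusted p = 0.156), with vehicle replicate 1 standing above the other 3 libraries, and was called lower without vehicle replicate 2 (limma, adjusted p = 0.00301, from 0.00301 to 0.676 over the alternatives). The basic amino acid carrier SLC25A29, at 5.88 ± 0.353 FPKM with MGH-CP1 against 4.71 ± 0.479 FPKM with vehicle, was likewise just short (limma, adjusted p = 0.0580). It was called higher with a filter at 5 FPKM (limma, adjusted p = 0.0445), with voom (adjusted p = 0.0196), with the median log2 ratio set to 0 (limma, adjusted p = 0.0451) and without vehicle replicate 1 (limma, adjusted p = 0.0243, from 0.0196 to 0.267 over the alternatives).

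**Figure D3:**
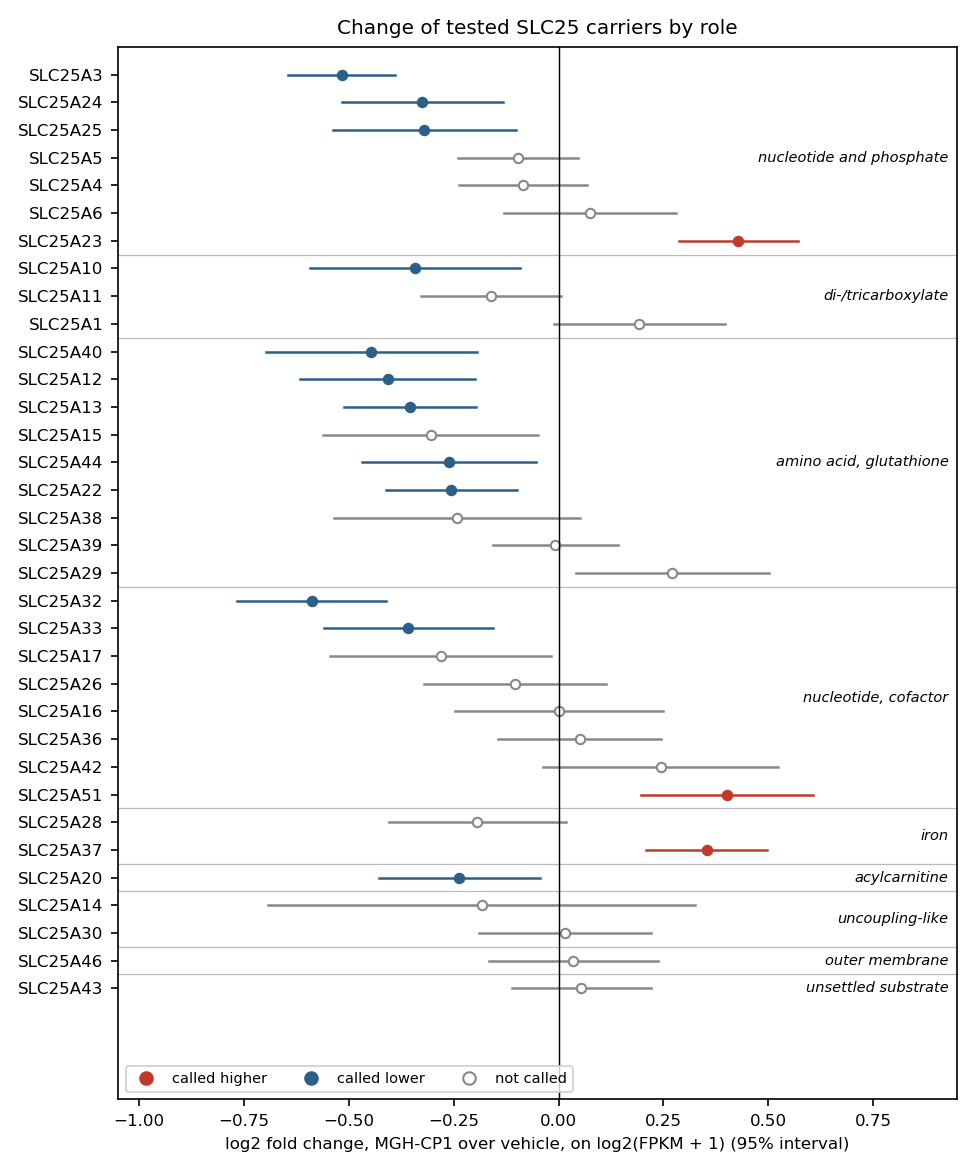
Log2 fold change of MGH-CP1 over vehicle on log2(FPKM + 1) with its 95% interval for 34 tested carriers, grouped by what they carry. Filled points passed at an adjusted p under 0.05, 3 to the right of 0 and 12 to the left, and open points did not.

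The mitoferrins, which bring iron into the matrix for heme and iron-sulfur clusters, were split. SLC25A37 (chromosome 8, 23386318 to 23432976, plus strand) was at 37.0 and 39.5 FPKM with MGH-CP1, against 30.3 and 29.1 FPKM with vehicle, with both MGH-CP1 libraries higher (log2 fold change 0.35 ± 0.06; limma, adjusted p = 0.00326, at most 0.0405 over the alternatives). SLC25A28 was at 8.07 and 7.49 FPKM with MGH-CP1, against 9.68 and 8.43 FPKM with vehicle, and did not pass (log2 difference -0.19, 95% interval -0.40 to 0.02; limma, adjusted p = 0.119). It was called lower without vehicle replicate 2 (limma, adjusted p = 0.0341, from 0.0341 to 0.409 over the alternatives). The ratio of SLC25A37 to SLC25A28 was 4.59 and 5.27 with MGH-CP1, against 3.13 and 3.45 with vehicle.

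Of the carriers of citrate-cycle acids 1 of 3 tested genes passed, where 45.0% of all tested genes did. The dicarboxylate carrier SLC25A10 was at 5.56 and 6.06 FPKM with MGH-CP1, against 8.42 and 6.89 FPKM with vehicle (log2 fold change -0.34 ± 0.11; limma, adjusted p = 0.0350). The call was lost without either MGH-CP1 library (limma, adjusted p = 0.162 and 0.0687) and without vehicle replicate 1 (limma, adjusted p = 0.129, log2 value -0.21), in a range of 0.00453 to 0.162 over the alternatives. SLC25A10 overlaps MRPL12 on the same strand over 4153 bases, where MRPL12 averaged 4.48 FPKM. MRPL12 was at 3.77 and 3.50 FPKM with MGH-CP1, against 7.10 and 3.53 FPKM with vehicle, and did not pass (limma, adjusted p = 0.224). Like SLC25A10 it was highest in vehicle replicate 1, so the SLC25A10 value is uncertain. The citrate carrier SLC25A1, which exports the carbon used for lipid synthesis, was at 54.0 and 47.5 FPKM with MGH-CP1, against 47.2 and 41.3 FPKM with vehicle (log2 difference 0.19, 95% interval -0.01 to 0.40; limma, adjusted p = 0.111). It was called higher with the replicate number in the fit (limma, adjusted p = 0.0241) and without vehicle replicate 1 (limma, adjusted p = 0.0116, from 0.0116 to 0.511 over the alternatives). The oxoglutarate carrier SLC25A11, the malate arm of the malate-aspartate shuttle, averaged 19.9 ± 1.53 FPKM with MGH-CP1, against 22.3 ± 0.262 FPKM with vehicle (limma, adjusted p = 0.104). SLC25A11 shares 244 bases with RNF167 on the opposite strand, which averaged 39.8 FPKM and did not pass (limma, adjusted p = 0.285). The SLC25A11 value is uncertain to that extent.

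The carnitine/acylcarnitine carrier SLC25A20, which admits fatty acids for oxidation, averaged 5.03 ± 0.106 FPKM with MGH-CP1, against 6.11 ± 0.00985 FPKM with vehicle. It passed by the narrowest margin (limma, adjusted p = 0.0491), and leaving out any single library ended the call (limma, highest adjusted p = 0.214). The uncoupling-protein-like genes SLC25A14 and SLC25A30, the outer membrane protein gene SLC25A46 and SLC25A43 did not pass. SLC25A14 was the most variable, at 3.21 and 1.67 FPKM with MGH-CP1, against 3.24 and 2.42 FPKM with vehicle. The other 3 averaged 4.63 ± 0.0982, 12.9 ± 0.284 and 12.8 ± 0.475 FPKM with MGH-CP1, against 4.57 ± 0.145, 12.6 ± 1.37 and 12.3 ± 0.501 FPKM with vehicle.

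The remaining 14 members had means of at most 0.921 FPKM and were not tested. SLC25A35 lay just under the limit at 0.921 FPKM. SLC25A27, an uncoupling-protein-like carrier, was at 0.917 and 0.995 FPKM with MGH-CP1, against 0.365 and 0.663 FPKM with vehicle, on 20 to 50 reads. SLC25A45 was at 1.048 and 0.820 FPKM, against 0.494 and 0.469 FPKM. Both were higher in each MGH-CP1 library, and neither passed when all genes were tested with no filter (limma, adjusted p = 0.171 and 0.101). SLC25A53 averaged 0.535 FPKM with MGH-CP1 and 0.593 FPKM with vehicle, and the glutamate carrier SLC25A18 averaged 0.367 FPKM with MGH-CP1 and 0.239 FPKM with vehicle. The other 9 rows had fewer than 10 reads in every library, among them the liver gene SLC25A47 and the ornithine carrier SLC25A2. SLC25A48 was at 0 in all 4 libraries, where 3 reads would give 0.0787 to 0.0866 FPKM. Genes of the family that carry other names were not members. Of 3 such genes tested 1 was lower, where 25.1% of all tested genes were. It was the uncoupling protein gene UCP2, at 24.6 and 22.2 FPKM with MGH-CP1, against 28.7 and 26.5 FPKM with vehicle. Its adjusted p was 0.0413 (limma), and it did not pass without MGH-CP1 replicate 1, MGH-CP1 replicate 2 or vehicle replicate 1. It also failed with the median log2 ratio set to 0 (limma, adjusted p = 0.0586) and with no mean-variance trend (limma, adjusted p = 0.0808). The same was so with no filter on low values (limma, adjusted p = 0.138), while it passed in the other alternatives.

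Most tested genes of the machinery that imports carriers were lower with MGH-CP1. In a list of outer membrane receptors, small TIM chaperones and TIM22 subunits, 10 of 13 tested genes were lower (76.92%, beside 25.1% of all tested genes) and none higher. The median log2 fold change was -0.49, beside -0.02 for all tested genes. The list is described by its count, since no list was tested as a set. The count was smaller with either MGH-CP1 library left out, as was the share of all tested genes called lower. TOMM40, the channel through which nearly all precursors enter, was at 25.6 and 24.9 FPKM with MGH-CP1, against 56.7 and 52.4 FPKM with vehicle (log2 fold change -1.08 ± 0.06; limma, adjusted p = 3.96e-05). TIMM10, a chaperone that escorts carriers between the membranes, was at 18.03 and 16.6 FPKM, against 35.2 and 29.9 FPKM (log2 fold change -0.87 ± 0.09). TIMM8A was at 5.39 and 4.36 FPKM, against 8.55 and 8.98 FPKM (log2 fold change -0.74 ± 0.10). TIMM22 itself, the insertion pore, was at 14.95 and 15.4 FPKM, against 17.1 and 16.8 FPKM, and did not pass (limma, adjusted p = 0.0857). The list members TOMM20 and C19orf52 did not pass either (limma, adjusted p = 0.0943 and 0.0702). Each of the 13 lay below both vehicle libraries in both MGH-CP1 libraries, as did 39.4% of all tested genes. No tested carrier had as deep a fall as TOMM40, though whether carriers and import genes differ was not tested.

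**Figure D4:**
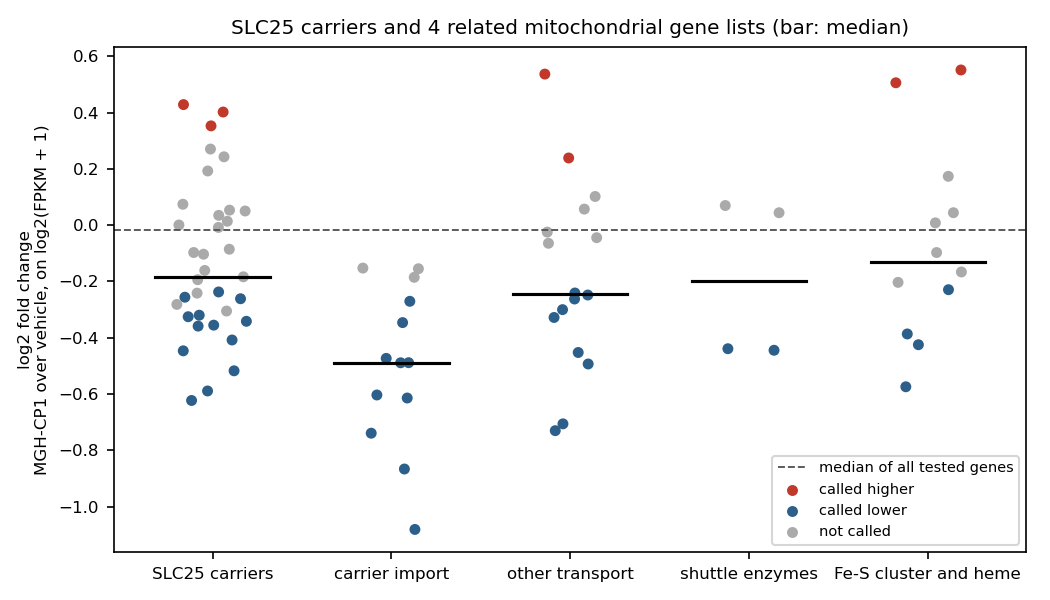
Log2 fold change of MGH-CP1 over vehicle on log2(FPKM + 1) for each tested gene of the SLC25 family and of 4 related lists, with a bar at each median and a dashed line at the median of all 11790 tested genes (-0.02). The median was -0.18 for carriers, -0.49 for carrier import, -0.24 for other mitochondrial transport, -0.20 for shuttle enzymes and -0.13 for iron-sulfur and heme genes.

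Other mitochondrial transport genes and the enzymes that work with the carriers gave mixed counts. Of 16 transport genes outside the family 9 were lower (56.25%, beside 25.1% of all tested genes) and 2 higher (12.5%, beside 20.0%). With either MGH-CP1 library left out 6 were lower and 1 higher, where 17.4% to 17.5% of all tested genes were lower and 12.4% to 12.9% higher. ABCB10, an inner membrane transporter linked to heme synthesis, was at 7.96 and 7.64 FPKM with MGH-CP1, against 12.8 and 14.4 FPKM with vehicle (log2 fold change -0.73 ± 0.08). The sideroflexin SFXN2 fell by 0.71 on the log2 scale, and SFXN1, SFXN4 and SFXN5 were also called lower (log2 fold changes -0.45, -0.49 and -0.33). Only the sideroflexin SFXN3, at 37.1 and 35.8 FPKM, against 24.4 and 25.2 FPKM, rose (log2 fold change 0.54 ± 0.06; limma, adjusted p = 0.000414). MPC1 and MPC2, which form the pyruvate carrier, did not pass (limma, adjusted p = 0.353 and 0.611). Of the 4 malate-aspartate shuttle enzymes, the aminotransferases GOT1 and GOT2 fell (50%, where 25.1% of all tested genes were lower), as did SLC25A12 and SLC25A13. GOT2, the matrix form, was at 32.4 and 32.02 FPKM with MGH-CP1, against 44.5 and 43.9 FPKM with vehicle (log2 fold change -0.44 ± 0.05; limma, adjusted p = 0.000709). GOT1, in the cytosol, was at 18.6 and 19.05 FPKM, against 25.5 and 26.2 FPKM (limma, adjusted p = 0.00112). The malate dehydrogenase genes MDH1 and MDH2 did not pass (limma, adjusted p = 0.654 and 0.457).

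Of 12 tested iron-sulfur and heme genes, 2 were higher (16.67%) and 4 lower (33.33%), shares near the 20.0% and 25.1% of all tested genes. With either MGH-CP1 library left out 2 were lower. Of the heme enzymes, ALAS1 and PPOX rose, whereas CPOX (log2 difference 0.01) and FECH (log2 difference -0.10) did not pass. ALAS1, the first enzyme, was at 21.8 and 23.7 FPKM with MGH-CP1, against 16.3 and 14.1 FPKM with vehicle (log2 fold change 0.55 ± 0.08; limma, adjusted p = 0.00193). PPOX, a late enzyme of the pathway, was at 7.96 and 7.16 FPKM, against 5.41 and 4.65 FPKM (log2 fold change 0.51 ± 0.10; limma, adjusted p = 0.00537). GLRX5, an iron-sulfur cluster protein, was at 22.1 and 20.5 FPKM, against 35.0 and 29.6 FPKM (log2 fold change -0.57 ± 0.09; limma, adjusted p = 0.00187). LYRM4, which serves cluster assembly, also fell (limma, adjusted p = 0.00348). FDX1, a ferredoxin, passed (limma, adjusted p = 0.0331), but not without MGH-CP1 replicate 1 (limma, adjusted p = 0.105), MGH-CP1 replicate 2 (limma, adjusted p = 0.198) or vehicle replicate 2 (limma, adjusted p = 0.0780), nor with no filter on low values.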

How the data were processed

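The authors deposited 1 table of FPKM values per gene and library, with hg19 coordinates, gene type and length. CASAVA 1.8, STAR and hg19 are named per the submitters' processing notes. No counter, strand setting, annotation release or STAR version is given in the sources used here. FPKM times gene length gave whole multiples of 1 step (100% of values above 0 within 0.001 of a whole number), taken as reads.

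The fit used limma 3.58.1 (R 4.3.3) on log2(FPKM + 1) for genes averaging 1 FPKM or more across the 4 libraries, with group as the only term, a mean-variance trend and Benjamini-Hochberg adjustment over the 11790 genes tested, two-sided. The fit was tested on simulated data. Intervals are limma's 95% intervals of the fold change. The 11 alternatives changed the pseudocount, the filter, the test, the scaling, the trend or the block, or left out 1 library. Leaving out a library leaves 1 sample in an arm, which is assumed to vary like the other group. Full values are given for called members of at least 0.4 on the log2 scale, for preset paralog sets and for the 3 largest calls of each further list, and the other tested members are named with group values, except as stated below. Other genes were named after their values were seen. The members and lists were chosen with earlier results of these data known. Python 3.11.15, pandas 2.3.3, numpy 2.4.6 and matplotlib 3.10.9 made tables and plots. Protein sequences were not used here, and values of 2 genes among the members and lists are not reported here.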

Additional observations from a re-analysis of the deposited data

How the results depend on the processing

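Of the 35 tested carriers, all kept their call with a pseudocount of 0.1 and with no mean-variance trend. The number of carriers called lower was 13 as reported, 4 with no filter on low values (where more genes of few reads were tested) and 5 to 13 with a library left out. The number called higher was 3 as reported and 2 to 6 with a library left out, the 6 without vehicle replicate 1. For all tested genes, 2355 were called higher as reported, 1568 with no filter, and 1460 to 2556 with a library left out. With the median log2 ratio set to 0, which removes a shift of -0.02 between the groups, 4 carriers were higher and 11 lower. With voom on recovered reads 4 were higher and 14 lower. The cause of these differences was not tested. With the replicate number as a block (replicate block), 4 carriers were higher, SLC25A1 among them, and 12 lower. Samples with the same number showed a correlation of deviations of 0.05 over 11790 genes, so the numbers were not taken as pairs. No carrier with a call changed direction in any alternative. With 2 libraries per group, small changes of carriers with few reads may have been missed, and no limit of detection was computed.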
